A study of Mus musculus with 6 samples.

Results

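Genes that mark the excitatory, glutamate-releasing neurons of the cortex were followed in bulk poly(A) RNA of the mouse piriform cortex, which receives direct input from the olfactory bulb. A set of 9 was chosen by gene name for roles in cortical excitatory identity: the vesicular glutamate transporters Slc17a7 and Slc17a6 and the transcription factors Tbr1, Fezf2, Bcl11b, Cux1, Cux2, Neurod2 and Neurod6. Bcl11b was not analysed here. The other 8 were found among 53715 genes of the count table, and all 8 passed the filter on low counts that left 16721 genes for testing.

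All mice were Gad2-cre, so that Cre recombinase is made where the Gad2 promoter is active, in GABAergic neurons. The Caspase3 group (n = 3 libraries) had received AAV-DIO-Caspase3 in the piriform cortex of 1 side, a virus whose Cre-dependent caspase is meant to kill Gad2-expressing neurons. The GFP group (n = 3 libraries) had received AAV-DIO-GFP in the same way. Excitatory neurons were therefore not the cells addressed by the virus, and the comparison asks what their identity transcripts did where GABAergic neurons were targeted. The labels used here state no strain, sex, age, hemisphere sampled or time after injection. Separate animals are not stated either, so the p-values rest on the spread of 3 libraries a group, and some of it may be technical. Total counts were 20424581 to 24227361 in Caspase3 libraries and 22101015 to 26268377 in GFP libraries. Gad2 itself was at 26.7, 38.5 and 38.0 CPM (counts scaled by library total and TMM factor) in Caspase3 replicates 1 to 3, against 92.4, 118.0 and 103.7 CPM in GFP replicates 1 to 3, with no overlap. Of 13 listed GABAergic genes, 1 was called lower, Gad2, beside 0.114% of all tested genes. All 13 had negative log2 fold changes, beside 50.2% of all tested genes.

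Excitatory neurons of the cortex arise in the embryonic pallium, where a cascade of transcription factors sets their transmitter and their laminar class. The basic helix-loop-helix factors Neurod2 and Neurod6 switch on in newly formed pallial neurons and bind E-box sequences. Tbr1, a T-box factor, Fezf2, a zinc finger factor, and Cux1 and Cux2, homeodomain factors, then help to set deep and superficial projection classes. The mature cells load glutamate into synaptic vesicles mainly with the Slc17a7 product (VGLUT1) and to a lesser degree with that of Slc17a6 (VGLUT2), which prevails in the thalamus and other subcortical regions.

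Of the vesicular transporters, Slc17a6 had the larger spread within groups (SD of 0.47 on the log2 scale, against 0.25 for Slc17a7), and of the Neurod factors, Neurod6 (0.63, against 0.21 for Neurod2). The proximal promoters of these 4 genes, chosen for this difference in spread, are shown as a description only. Each sequence runs from 250 bases before to 50 bases after the transcription start (RefSeq, GRCm38.p6). They are chr7:45163671-45163970 (plus strand) for Slc17a7, chr7:51621580-51621879 (plus strand) for Slc17a6, chr11:98329596-98329895 (minus strand) for Neurod2 and chr6:55681214-55681513 (minus strand) for Neurod6. Capitals mark the E-boxes CAGATG and CAGCTG, searched on both strands.
Slc17a7: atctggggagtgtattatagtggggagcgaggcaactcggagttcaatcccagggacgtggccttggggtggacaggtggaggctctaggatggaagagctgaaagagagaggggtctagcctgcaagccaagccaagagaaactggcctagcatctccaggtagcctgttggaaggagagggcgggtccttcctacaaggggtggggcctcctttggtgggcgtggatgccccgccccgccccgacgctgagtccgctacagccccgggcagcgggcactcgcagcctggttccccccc
Slc17a6: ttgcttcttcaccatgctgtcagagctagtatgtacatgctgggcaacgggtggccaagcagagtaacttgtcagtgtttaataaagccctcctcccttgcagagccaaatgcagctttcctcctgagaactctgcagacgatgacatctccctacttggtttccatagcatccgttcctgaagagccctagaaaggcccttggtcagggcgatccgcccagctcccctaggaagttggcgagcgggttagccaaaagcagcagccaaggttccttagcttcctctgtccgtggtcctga
Neurod2: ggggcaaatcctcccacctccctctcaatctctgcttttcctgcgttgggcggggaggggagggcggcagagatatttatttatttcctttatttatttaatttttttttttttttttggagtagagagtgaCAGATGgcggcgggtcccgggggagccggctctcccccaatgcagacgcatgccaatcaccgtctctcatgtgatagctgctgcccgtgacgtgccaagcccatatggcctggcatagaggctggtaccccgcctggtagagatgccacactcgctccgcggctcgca
Neurod6: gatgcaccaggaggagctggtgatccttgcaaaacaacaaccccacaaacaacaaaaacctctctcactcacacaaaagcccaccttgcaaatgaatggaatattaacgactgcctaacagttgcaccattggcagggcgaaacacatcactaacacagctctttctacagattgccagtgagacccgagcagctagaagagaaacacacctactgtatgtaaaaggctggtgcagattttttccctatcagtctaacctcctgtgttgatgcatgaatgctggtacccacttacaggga

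Of the 8 members, all matched in the RefSeq promoter table, the window of Neurod2 alone held CAGATG, and none held CAGCTG. At least 1 of these E-boxes was found in 30.6% of all 32851 promoter windows of the same length. The T-box site core GGTGTGA, searched on both strands, was in none of the 8 windows and in 4.0% of all windows. G and C made up 63.7% of the Slc17a7 window and 53.7% of the Slc17a6 window, and 55.3% of the Neurod2 window and 46.3% of the Neurod6 window. Where the table lists several starts for a gene, as for Slc17a6 and Cux2, the window nearest to the start in the count table was taken. RefSeq starts can differ from those of the count table, and no reading of a factor's binding follows from letters present or absent in a window.

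The members spanned more than 2 orders of magnitude in level per gene length. In the deposited FPKM values (fragments scaled by gene length and sequencing depth), Slc17a7 stood highest, at 190.7 ± 16.1 in the Caspase3 group and 185.4 ± 41.8 in the GFP group (SD, n = 3 each). Over all 6 libraries its mean FPKM exceeded that of 99.4% of tested genes, so the tissue carried the main vesicular transporter of cortical excitatory neurons at a high level. Tbr1 followed with 32.7 ± 0.774 FPKM in the Caspase3 group and 35.7 ± 6.99 FPKM in the GFP group, and Neurod2 with 12.4 ± 1.11 and 12.2 ± 2.22 FPKM in the same order of groups. Slc17a7 exceeded Tbr1 in all 6 libraries and Tbr1 exceeded Neurod2 in all 6, with no overlap in either case. The next 4 genes were close together, and Neurod2 exceeded the first of them, Slc17a6, in 6 of 6 libraries although their ranges overlapped. Slc17a6 averaged 7.09 ± 2.56 FPKM over the 6 libraries, Cux2 6.41 ± 0.874, Neurod6 5.71 ± 3.03 and Cux1 5.15 ± 0.341 (SD, n = 6). Neighbours in this stretch did not differ beyond their spread: Slc17a6 exceeded Cux2 in 3 libraries of 6, Cux2 exceeded Neurod6 in 4, and Neurod6 exceeded Cux1 in 3. Fezf2 was the lowest member, at 0.940 ± 0.139 FPKM in the Caspase3 group and 0.661 ± 0.0768 FPKM in the GFP group, below Cux1 in every library.

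**Figure D1:**
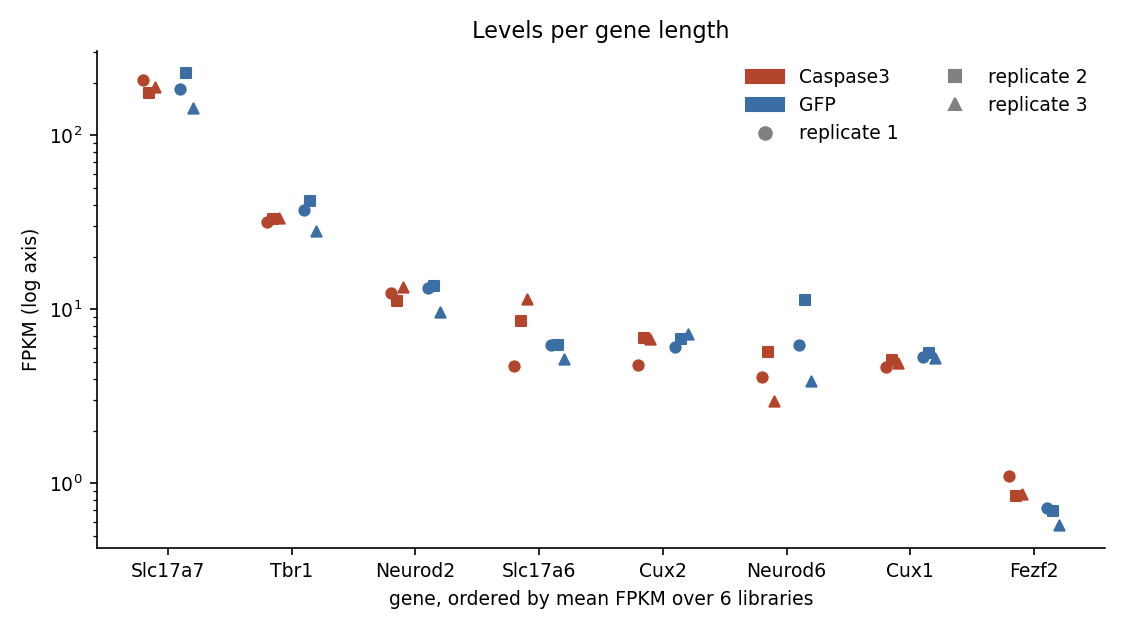
Level of each analysed member per gene length, as deposited FPKM on a log axis, with 1 point per library, Caspase3 left of GFP and symbols for replicates. Slc17a7 and Tbr1 stand above the rest in every library, Slc17a6, Cux2, Neurod6 and Cux1 overlap, and Fezf2 is lowest.

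None of the 8 members passed the test between the groups. In edgeR's quasi-likelihood test with Benjamini-Hochberg adjustment over all 16721 genes, the lowest adjusted p among them was 0.442, for Fezf2. DESeq2 and limma-voom also called 0 of 8, each with 1 unadjusted p under 0.05. In edgeR's test there was 1 member of 8 with an unadjusted p under 0.05, Fezf2, where 10.6% of all tested genes had such a p. Across all tested genes, 1.64% passed the adjusted threshold of 0.05, 1.53% as higher and 0.114% as lower in the Caspase3 group. Over the members the median log2 fold change was -0.04, or 0.02 with library totals in place of TMM factors, beside -0.0011 over all tested genes, or 0.06 with library totals. The median size of the change, whatever its sign, was 0.12 on the log2 scale for the members and 0.14 for all tested genes. Of the members, 4 had negative and 4 positive values.

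**Figure D2:**
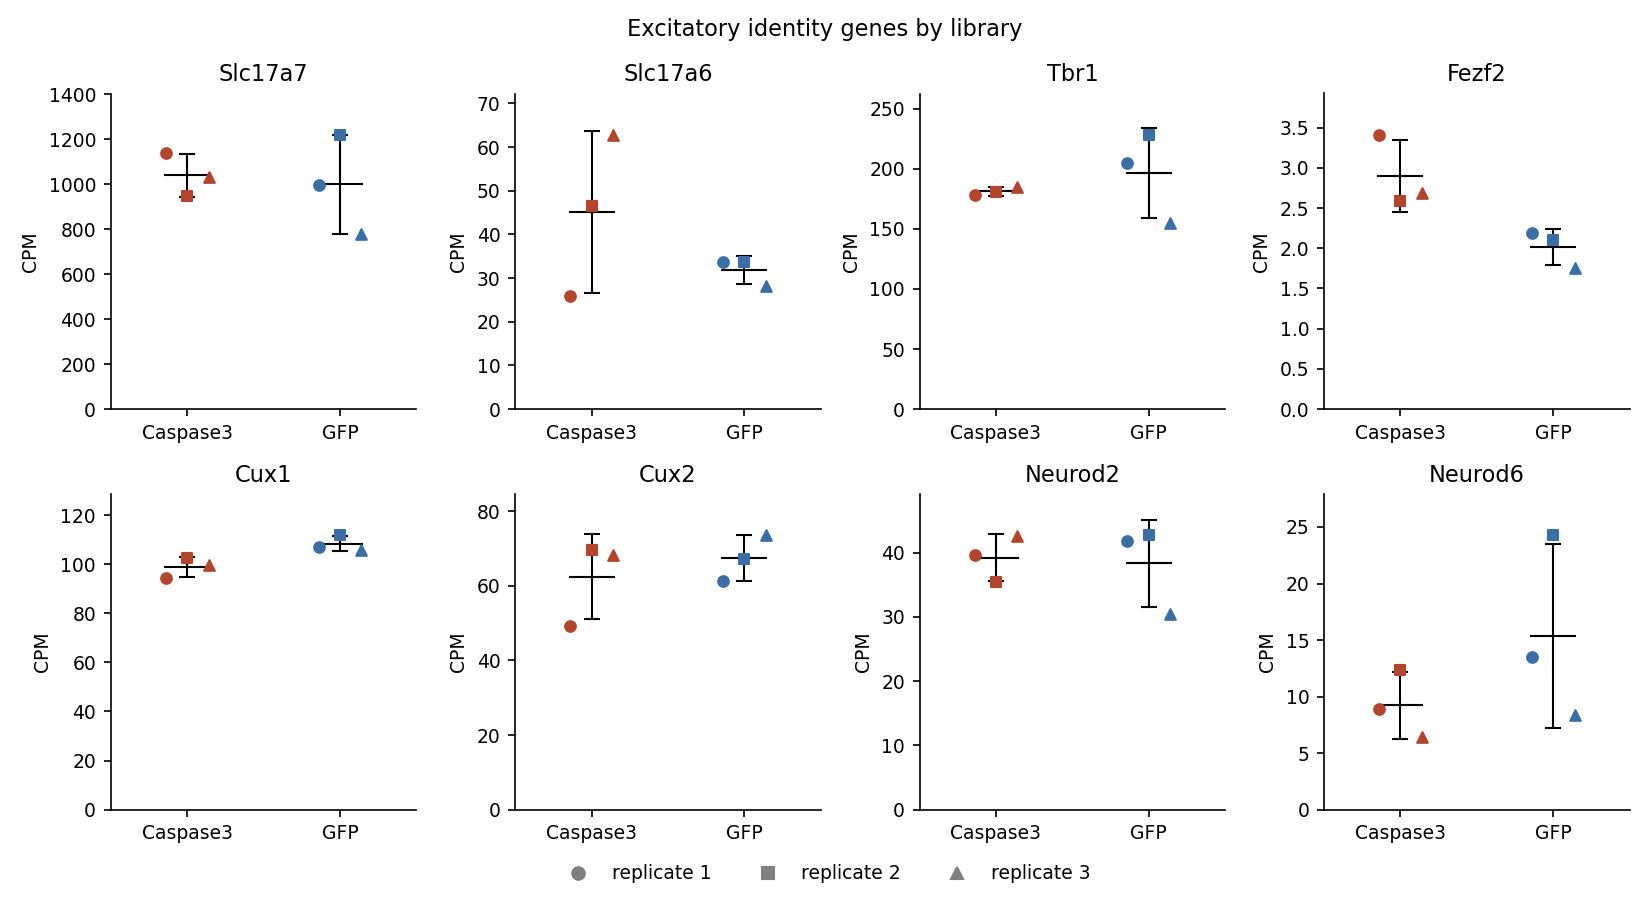
CPM, scaled with TMM factors, of each analysed member in every library, with the Caspase3 group left of the GFP group. Points are libraries, the long bar is the mean and the error bar the SD (n = 3). The groups overlap for 6 genes and do not overlap for Fezf2 and Cux1, 2 of 8. Over all tested genes they do not overlap for 15.2%.

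Slc17a7 (ENSMUSG00000070570, chromosome 7, 45163949 to 45176142, GRCm38), the vesicular transporter that most cortical excitatory neurons use, differed little between the groups. It stood at 1138, 946 and 1033 CPM in Caspase3 replicates 1 to 3, against 998, 1221 and 780 CPM in GFP replicates 1 to 3. The highest and the lowest library both belonged to the GFP group, and the Caspase3 libraries lay between them. The log2 fold change was 0.06 ± 0.17 (SE), with a 95% interval of -0.32 to 0.44, which is 0.799-fold to 1.35-fold (adjusted p = 0.934, edgeR). Its sign was not stable, since it was -0.10 without GFP replicate 3 and -0.012 without Caspase3 replicate 1. In bulk RNA, fewer cells of a type and less RNA per cell cannot be told apart, and this holds for every level given here.

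Slc17a6 (ENSMUSG00000030500, chromosome 7, 51622006 to 51671119) varied much more. It was at 25.8, 46.5 and 62.8 CPM in Caspase3 replicates 1 to 3, against 33.8, 33.6 and 28.2 CPM in GFP replicates 1 to 3. The Caspase3 group thus held both the lowest library and the 2 highest, while the GFP libraries were close to each other. Caspase3 over GFP, the log2 fold change was 0.50 ± 0.26, with a 95% interval of -0.09 (-0.0946) to 1.10 (adjusted p = 0.559, edgeR). Counts of 545 to 1593 reads stood behind these values. Caspase3 replicate 1 decided the call: without it Slc17a6 was higher in the Caspase3 group by 0.78 on the log2 scale (adjusted p = 0.0325, edgeR). Without Caspase3 replicate 3 the value was 0.17 (adjusted p = 0.931). Slc17a6 also passed with no filter on low counts (adjusted p = 0.0489), and over all alternatives its adjusted p lay between 0.0325 and 0.931.

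Per gene length, Slc17a6 made up a small part of both transporters together. Its share of their summed FPKM was 2.22%, 4.68% and 5.73% in Caspase3 replicates 1 to 3, against 3.27%, 2.68% and 3.49% in GFP replicates 1 to 3. The groups overlapped, with 4.21% ± 1.80 in the Caspase3 group and 3.15% ± 0.420 in the GFP group (SD, n = 3 each).

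Markers of the thalamus, where Slc17a6 is abundant, were examined beside it. The 8 listed thalamic genes summed to 65.2 to 77.7 CPM in Caspase3 libraries and 48.5 to 61.4 CPM in GFP libraries. The highest sum belonged to Caspase3 replicate 1, the library with the least Slc17a6. Plekhg1 and Prkcd made up most of it. Of the 7 tested, 5 had positive values and none passed. Prkcd, a protein kinase C, was at 13.6 ± 3.03 CPM in the Caspase3 group and 7.85 ± 0.914 CPM in the GFP group (SD, n = 3 each), without overlap (log2 fold change 0.79 ± 0.19, adjusted p = 0.0973, edgeR). Plekhg1 did not overlap either, at 0.32 ± 0.13 on the log2 scale (adjusted p = 0.434). Ramp3 had the largest change of the list and lay the other way, at -1.22 ± 0.55 (adjusted p = 0.484, edgeR). It was low, at 0.510 ± 0.430 CPM in the Caspase3 group and 1.17 ± 0.461 CPM in the GFP group. Tcf7l2, a transcription factor of the thalamus, was at 11.7 to 14.8 CPM in Caspase3 libraries and 11.2 to 14.7 CPM in GFP libraries. Gbx2, another such factor, had no count in any Caspase3 library and 2 to 3 counts in each GFP library. The part of thalamic RNA in the Slc17a6 values was not tested. Of 9 hypothalamic genes, none passed the filter on low counts and 1 had no count in any library, with sums of at most 1.23 CPM in Caspase3 libraries and in GFP libraries.

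**Figure D3:**
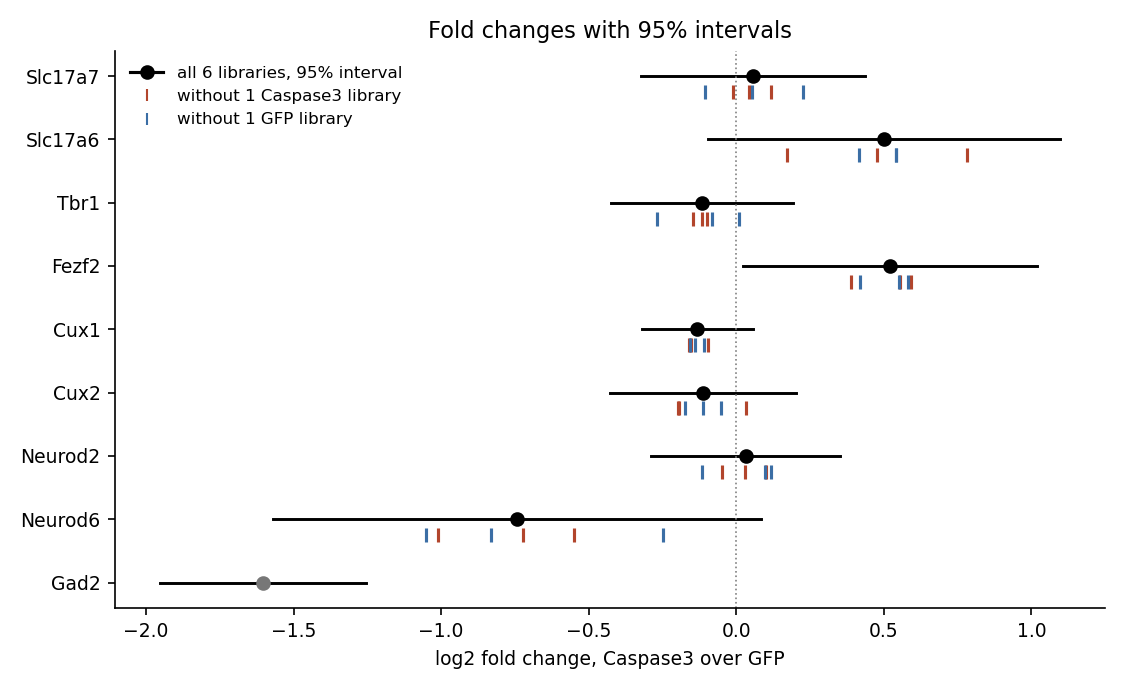
Log2 fold change, Caspase3 over GFP, of each analysed member and of Gad2. Points and lines are the estimate and 95% interval from all 6 libraries, black for members, with a grey point for Gad2. Ticks below the members are the values with 1 library left out, which are not shown for Gad2. The intervals of 7 members include 0, that of Fezf2 starts at 0.02, and Slc17a6 and Neurod6 move most between the ticks.

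Tbr1 (ENSMUSG00000035033, chromosome 2, 61802930 to 61814114), the T-box factor of pallial projection neurons, was nearly constant within the Caspase3 group. It stood at 177.7, 180.9 and 184.5 CPM in Caspase3 replicates 1 to 3, against 205.0, 228.3 and 155.0 CPM in GFP replicates 1 to 3. The GFP libraries spread on both sides of the Caspase3 libraries. The log2 fold change was -0.12 ± 0.14, with a 95% interval of -0.42 to 0.19 (adjusted p = 0.816, edgeR), and it was 0.0081 without GFP replicate 2.

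Fezf2 (ENSMUSG00000021743, chromosome 14, 12342094 to 12348189), which directs neurons of deep cortical layers towards subcerebral targets, was the member with the smallest p. It was at 3.41, 2.59 and 2.68 CPM in Caspase3 replicates 1 to 3, against 2.19, 2.10 and 1.76 CPM in GFP replicates 1 to 3. The lowest Caspase3 library lay above the highest GFP library, a separation found in either direction for 15.2% of all tested genes. Its log2 fold change was 0.52 ± 0.22, with a 95% interval of 0.02 (0.0219) to 1.02, an unadjusted p of 0.0425 and an adjusted p of 0.442 in edgeR. Few reads stood behind it, 197 over the Caspase3 libraries and 140 over the GFP libraries. Exact 95% Poisson intervals, which cover counting error only, ran from 1.96 to 3.36 CPM for Caspase3 replicate 2 and from 1.61 to 2.91 CPM for GFP replicate 1, and so overlapped. Its adjusted p ranged from 0.347 to 0.795 over the alternatives, and its log2 fold change from 0.22 to 0.59.

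The homeodomain factors Cux1 and Cux2, which mark superficial cortical layers, had values a little below those of the GFP group. Cux1 (ENSMUSG00000029705, chromosome 5, 136248135 to 136567490), which many cell types besides neurons express, was at 94.4, 102.6 and 99.6 CPM in Caspase3 replicates 1 to 3, against 107.1, 111.8 and 105.9 CPM in GFP replicates 1 to 3. The groups did not overlap, as for 15.2% of all tested genes, and the difference was small. Cux1 had a log2 fold change of -0.13 ± 0.08 (0.0827), with a 95% interval of -0.32 to 0.06 (0.0555) and an adjusted p of 0.634 in edgeR. Cux1 was the steadiest member: its SD within groups, 0.05 (0.0519) on the log2 scale, was smaller than that of all but 2.33% of tested genes. An exon of Cux1 overlaps an exon of the gene Gm16599 on the opposite strand in GENCODE M21, so its count could hold reads of that gene if strand was not used. No exon of the other 7 members overlaps an exon of another gene. Cux2 (ENSMUSG00000042589, chromosome 5, 121856366 to 122050102) was at 49.3, 69.5 and 68.4 CPM in Caspase3 replicates 1 to 3, against 61.4, 67.3 and 73.6 CPM in GFP replicates 1 to 3. Caspase3 replicate 1 was low and the other Caspase3 libraries lay within the GFP range. For Cux2 the log2 fold change was -0.11 ± 0.14, with a 95% interval of -0.43 to 0.20 (adjusted p = 0.828, edgeR), and it was 0.034 without Caspase3 replicate 1.

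The helix-loop-helix factors Neurod2 and Neurod6, which promote and keep the differentiation of pallial neurons, differed from each other in spread. Neurod2 (ENSMUSG00000038255, chromosome 11, 98325415 to 98329648) was at 39.6, 35.4 and 42.6 CPM in Caspase3 replicates 1 to 3, against 41.8, 42.7 and 30.5 CPM in GFP replicates 1 to 3. All 3 Caspase3 libraries lay within the range of the GFP libraries. For Neurod2 the log2 fold change was 0.03 ± 0.14, with a 95% interval of -0.29 to 0.35 (adjusted p = 0.957, edgeR), and it was -0.12 without GFP replicate 3 and -0.049 without Caspase3 replicate 3.

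Neurod6 (ENSMUSG00000037984, chromosome 6, 55677822 to 55681263) was at 8.91, 12.3 and 6.43 CPM in Caspase3 replicates 1 to 3, against 13.5, 24.3 and 8.35 CPM in GFP replicates 1 to 3. GFP replicate 2 stood far above the rest, and GFP replicate 3 below Caspase3 replicates 1 and 2. The highest library was 3.78 times the lowest, and the SD within groups, 0.63 on the log2 scale, exceeded that of 95.02% of tested genes. Its log2 fold change was -0.74 ± 0.37, with a 95% interval of -1.57 to 0.08 (0.0846) and an adjusted p of 0.530 in edgeR. Its size depended on GFP replicate 2, without which it was -0.25 (adjusted p = 0.924). It was -1.05 without GFP replicate 3. With no filter on low counts Neurod6 was called lower (adjusted p = 0.0171), and over all alternatives its adjusted p ranged from 0.0171 to 0.924.

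Listed genes of the claustrum and the endopiriform nucleus, excitatory structures next to the piriform cortex, had their highest sum in the same library as Neurod6. The 4 listed genes, Gnb4, Ntng2, Oprk1 and Nnat, summed to 97.4 to 109.3 CPM in Caspase3 libraries. The sums were 104.9, 170.6 and 108.0 CPM in GFP replicates 1 to 3. Of the 4, Gnb4 stood at 35.97 to 48.9 CPM in Caspase3 libraries, against 52.7, 96.9 and 48.4 CPM in GFP replicates 1 to 3. Nr4a2, a nuclear receptor that marks claustrum and endopiriform neurons and also responds to activity, stood at 13.9, 40.5 and 17.4 CPM in Caspase3 replicates 1 to 3, against 28.1, 100.1 and 38.4 CPM in GFP replicates 1 to 3. Nnat differed in being lowest in GFP replicate 2. Between the groups, 3 of the 4 had an unadjusted p under 0.05 in edgeR, beside 10.6% of all tested genes. Oprk1 (log2 fold change -1.28 ± 0.40) and Gnb4 (-0.62 ± 0.25) had negative values, and Nnat (0.47 ± 0.18) a positive one. None of the 4 passed the adjusted threshold (lowest adjusted p = 0.244, edgeR), and their part in the Neurod6 values was not tested.

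The precision of the estimates differed between members. The 95% intervals of Slc17a7, Tbr1, Cux1, Cux2 and Neurod2, 5 of 8, lay within 0.5 of 0 on the log2 scale, which is a change of at most 1.41-fold in either direction. Those of Slc17a6 and Fezf2 reached above 2-fold higher and that of Neurod6 below 2-fold lower. For comparison, Gad2, the targeted gene, had a log2 fold change of -1.60 with a 95% interval of -1.95 to -1.26 (adjusted p = 0.00371, edgeR). The lower bound of all 8 members lay above that estimate of -1.60, and for 7 of them, all but Neurod6, above the upper bound of -1.26. In FPKM, Gad2 stood at 2.16%, 3.73% and 3.38% of the Slc17a7 level in Caspase3 replicates 1 to 3, against 8.50%, 8.87% and 12.2% in GFP replicates 1 to 3.

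Several members were high or low in the same library. GFP replicate 2 was the highest of the 6 libraries for 5 of 8 members (Slc17a7, Tbr1, Cux1, Neurod2 and Neurod6), and was highest for 20.1% of all tested genes. GFP replicate 3 was the lowest for 4 of 8 (Slc17a7, Tbr1, Fezf2 and Neurod2), and for 14.6% of all tested genes. Slc17a7, Tbr1 and Neurod2 had the most similar profiles among the members. Their log2 CPM, each centred on its own mean, differed by 0.0943 to 0.101 on average over the 6 libraries. Caspase3 replicate 1 was the lowest for Slc17a6, Cux1 and Cux2, but the highest for Fezf2.

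**Figure D4:**
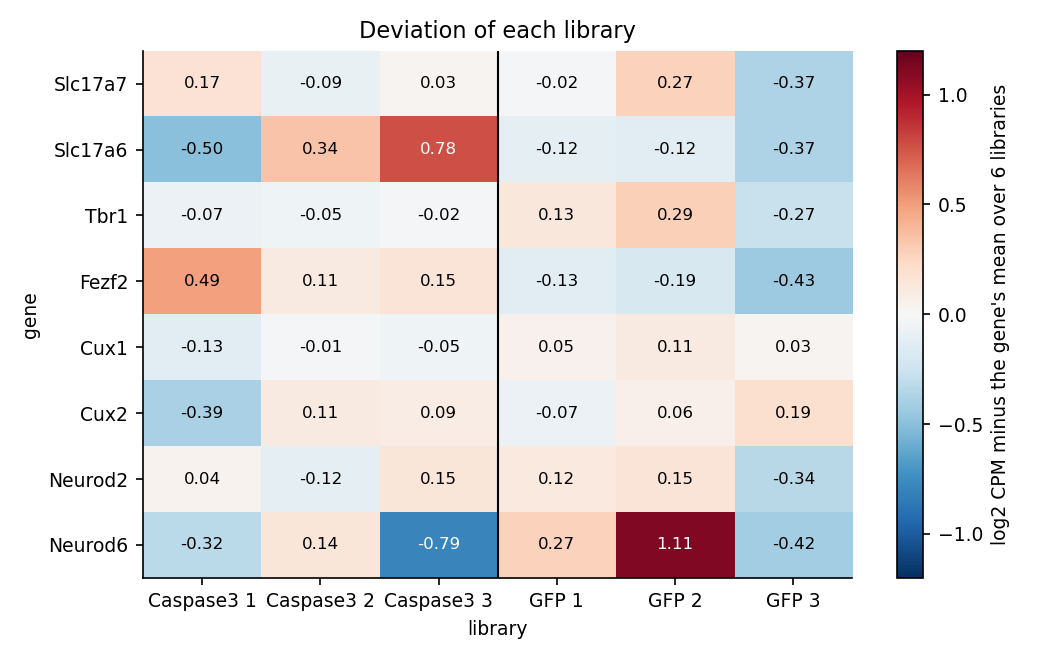
Log2 CPM of each analysed member in each library minus the gene's mean over the 6 libraries, with Caspase3 libraries left and GFP libraries right of the line. GFP 3 is lowest for Slc17a7, Tbr1, Fezf2 and Neurod2, GFP 2 is highest for Neurod6 at 1.11, and Slc17a6 is split between Caspase3 1 at -0.50 and Caspase3 3 at 0.78.

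Markers of other cells set these libraries apart too. The 14 listed genes of striatal projection neurons, the GABAergic output cells of the neighbouring striatum, summed to 408.9 to 427.1 CPM in Caspase3 libraries. In GFP libraries the sum was 547.8, 425.7 and 1712 CPM in replicates 1 to 3. In GFP replicate 3, Drd2 stood at 23.7 CPM, Adora2a at 42.4, Pde10a at 477.8 and Ppp1r1b at 144.0, each the highest of the 6 libraries. None of the 14 passed. The part of striatal RNA in the low Slc17a7, Tbr1, Fezf2 and Neurod2 values of that library was not tested. Without GFP replicate 3 no member passed either, with edgeR's adjusted p from 0.241 to 0.939 and a median over the members of -0.11 on the log2 scale. The 8 pan-neuronal genes summed to 8028 to 9574 CPM in Caspase3 libraries and to 8704 to 11624 CPM in GFP libraries, lowest in Caspase3 replicate 1. The 5 oligodendrocyte genes were highest in that library, at 8100 CPM, beside 6074 and 6162 CPM in the other Caspase3 libraries and 5250 to 6135 CPM in GFP libraries. Their part in its low Slc17a6 and Cux2 values was not tested. Between the groups, 4 of 6 microglial genes and 1 of 6 astrocyte genes were called higher, beside 1.53% of all tested genes. The microglial sums were 406.5 to 547.1 CPM in Caspase3 libraries and 274.8 to 319.6 CPM in GFP libraries. None of 4 dentate gyrus genes, 5 endothelial genes and 2 tested choroid plexus genes passed. The part of glial RNA in the members' levels was not tested.

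**Figure D5:**
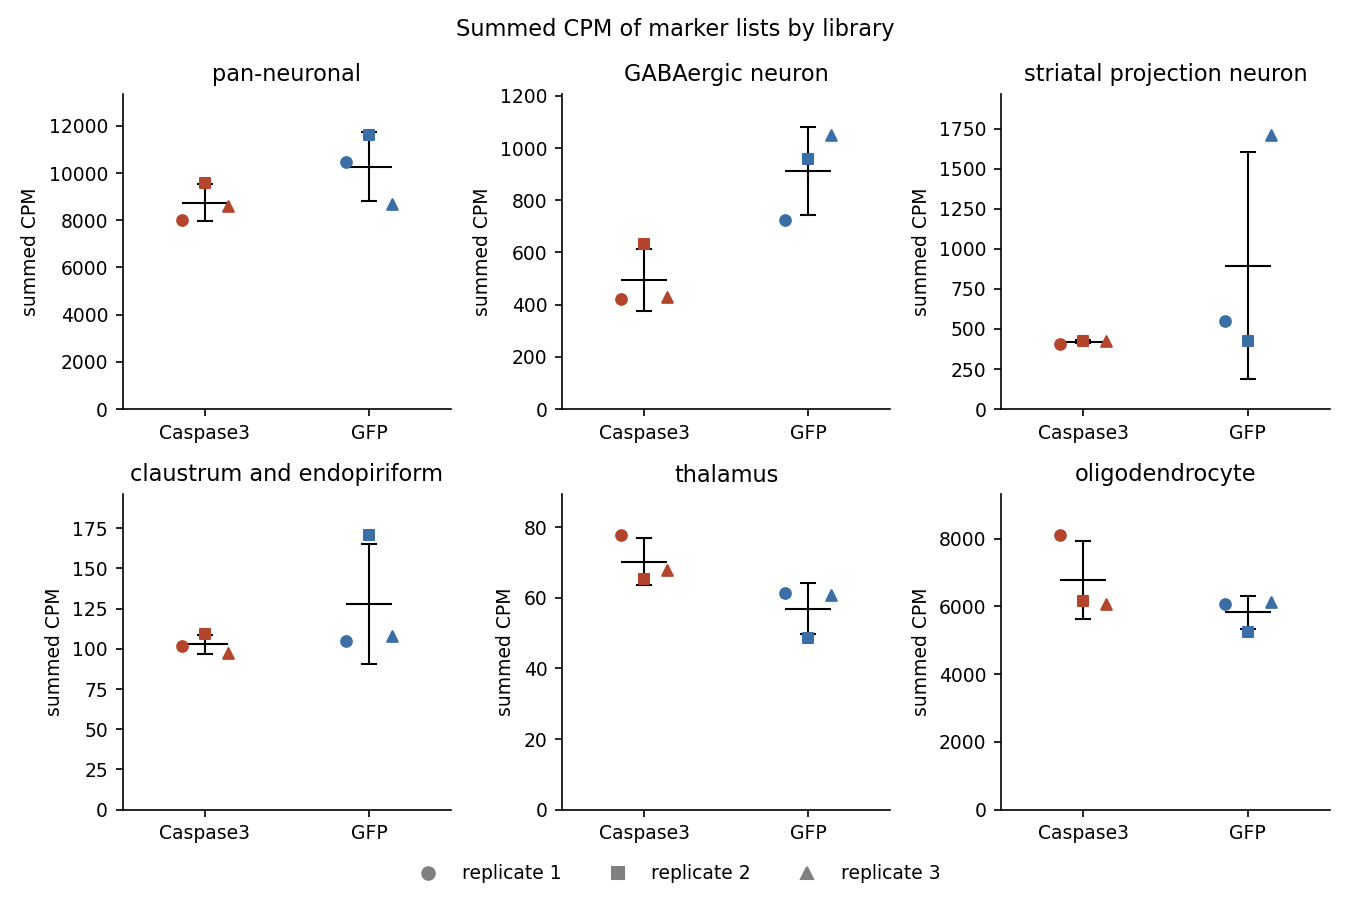
Summed CPM of 6 marker lists in every library, with the Caspase3 group left of the GFP group, points for libraries, long bars for means and error bars for SD (n = 3). Striatal genes are highest in GFP replicate 3 at 1712 CPM, claustrum and endopiriform genes in GFP replicate 2 at 170.6 CPM, and oligodendrocyte genes in Caspase3 replicate 1 at 8100 CPM.

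Other genes of excitatory neurons were read from the same fit. Of 64 listed genes, 63 were in the table and 62 were tested, and 0 passed in either direction with edgeR, DESeq2 or limma-voom. Of the 62, 9 had an unadjusted p under 0.05 in edgeR, which is 14.5%, beside 10.6% of all tested genes. The count was 11 of 63 in DESeq2 and 7 of 62 in limma-voom. The median log2 fold change of the 62 was -0.09. Values were negative for 41 of 62, or 66.1%, beside 50.2% of all tested genes. The groups did not overlap for 5 of 62, or 8.06%, beside 15.2% of all tested genes.

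Among 19 tested pallial transcription factors, 14 had negative values and the median log2 fold change was -0.10. Lmo3, a LIM-only cofactor, and Mef2c, a MADS-box factor of maturing neurons, had the highest CPM of the list. Lmo3 was at 865 ± 16.0 CPM in the Caspase3 group and 1039 ± 274 CPM in the GFP group (SD, n = 3 each), and Mef2c at 765 ± 114 and 930 ± 134 CPM in the same order. Foxp2, a forkhead factor of deep layers that striatal neurons also express, had the smallest p. It stood at 10.7, 5.09 and 6.74 CPM in Caspase3 replicates 1 to 3, against 22.3, 6.02 and 42.8 CPM in GFP replicates 1 to 3 (log2 fold change -1.66 ± 0.58, adjusted p = 0.317). Its highest value belonged to GFP replicate 3, the library with the highest sum of striatal genes. Nr4a2 had a log2 fold change of -1.22 ± 0.51 (adjusted p = 0.434). Eomes, a factor of pallial progenitors, did not pass the filter and reached at most 0.284 CPM.

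Genes that supply glutamate or load vesicles did not pass. Of 10 tested, 9 had negative values, beside 50.2% of all tested genes, with a median log2 fold change of -0.24. The pan-neuronal list had 7 of 8 negative values and a median of -0.20. Slc1a1, the neuronal glutamate transporter, stood at 73.7, 72.6 and 66.1 CPM in Caspase3 replicates 1 to 3, against 77.9, 100.9 and 87.3 CPM in GFP replicates 1 to 3. Its groups did not overlap (log2 fold change -0.33 ± 0.11, adjusted p = 0.303). Slc38a1, a glutamine transporter found in GABAergic neurons as well, had groups that did not overlap either, at -0.24 ± 0.10 on the log2 scale (adjusted p = 0.419). Slc6a17, a vesicular amino acid transporter, had -0.24 ± 0.13 (adjusted p = 0.578). Slc17a8 (VGLUT3), the third vesicular glutamate transporter, stood at 3.08 to 3.55 CPM in Caspase3 libraries, against 2.84, 2.49 and 9.40 CPM in GFP replicates 1 to 3, and was likewise highest in GFP replicate 3.

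Products enriched in excitatory neurons had a median log2 fold change of 0.01 (0.0060), with 8 of 16 values negative. Dkk3, a secreted protein of the Dickkopf family, stood at 94.8, 118.7 and 110.4 CPM in Caspase3 replicates 1 to 3, against 85.6, 92.3 and 70.1 CPM in GFP replicates 1 to 3. All Caspase3 libraries were above all GFP libraries (log2 fold change 0.38 ± 0.13, adjusted p = 0.288). Ngef, a guanine nucleotide exchange factor of growth cones, lay the other way, at -0.31 ± 0.11 (adjusted p = 0.316). The abundant products Olfm1, a secreted olfactomedin, and Enc1, an actin-binding protein, had log2 fold changes of 0.03 and 0.01, with adjusted p of 0.967 and 0.991.

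Laminar and projection class genes had the widest range of log2 fold changes of the 4 lists. Of 17 tested, 10 had negative values and the median log2 fold change was -0.08 (-0.0753), with a range from -2.06 to 0.73. Syt6, a synaptotagmin of deep layers that is also found in striatum, stood at 3.46, 3.77 and 4.54 CPM in Caspase3 replicates 1 to 3, against 9.74, 5.31 and 34.4 CPM in GFP replicates 1 to 3 (log2 fold change -2.06 ± 0.59, adjusted p = 0.194). GFP replicate 3 was far above the others. Cplx3, a complexin of subplate-derived neurons, was at 0.758, 2.91 and 1.81 CPM in Caspase3 replicates 1 to 3, against 1.96, 6.26 and 3.47 CPM in GFP replicates 1 to 3 (log2 fold change -1.09 ± 0.50, adjusted p = 0.493). Rasgrf2, an exchange factor of superficial layers, was at 186 to 293 CPM in Caspase3 libraries and 280 to 335 CPM in GFP libraries (adjusted p = 0.634). Wfs1, which encodes wolframin of the endoplasmic reticulum, was at 85.2, 247.8 and 230.5 CPM in Caspase3 replicates 1 to 3, against 103.6, 81.0 and 155.1 CPM in GFP replicates 1 to 3. As for Slc17a6, Caspase3 replicate 1 stood apart from the other Caspase3 libraries. The log2 fold change of Wfs1 was 0.73 ± 0.37 (adjusted p = 0.541), and 1.08 without that library (adjusted p = 0.0489).

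The genes with the most similar profiles over the 6 libraries were found for each member among 13116 others with a mean of at least 1 CPM. Likeness was the mean absolute difference of centred log2 CPM, where a smaller value is closer, and is a description only. Slc17a6, with a mean deviation of 0.373 of its own, was nearest to Cdkl4 (0.0991) and Rnf152 (0.106). Rnf152 stood at 47.9, 82.2 and 106.3 CPM in Caspase3 replicates 1 to 3, against 64.2, 54.6 and 41.1 CPM in GFP replicates 1 to 3, with the same order within the Caspase3 group as Slc17a6. Neurod6, with a mean deviation of 0.509, had no close match: its nearest genes were Tnfaip8l3 (0.179) and Rps28 (0.197). Slc17a7 was nearest to Rbpj-ps3 (0.0381) and Tbcc (0.0426), and Tbr1 to Zfp661 (0.0304) and Lingo1 (0.0327), a receptor component in the list of excitatory neuron products. Fezf2 was nearest to Gimap1 (0.0437) and Hhatl (0.0457), Cux1 to Mgat4a (0.0127) and Cnot9 (0.0140), Cux2 to Ajap1 (0.0230) and Baiap2 (0.0357), and Neurod2 to Utp23 (0.0316) and Nr2f2 (0.0389). None of these 16 genes passed the test between the groups.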

How the data were processed

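Poly(A) RNA was measured in 6 libraries, grouped and numbered by their titles. The deposited count table holds whole-number read counts per gene with Ensembl identifiers, names and GRCm38 coordinates, per the file headers. The deposited FPKM table holds FPKM values, used here for levels between genes and in alternatives. The submitters' processing notes name HISAT2, featureCounts, DESeq2, mm10 and GRCm38 without roles or versions. The sources used here do not say whether counting used strand. Coordinates of all 8 members equal those in GENCODE M21 (GRCm38).

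In R 4.3.3, edgeR 4.0.16 fitted the counts by group with glmQLFit and glmQLFTest after filterByExpr and TMM scaling, with Benjamini-Hochberg adjustment over 16721 genes and a threshold of 0.05. CPM are counts per TMM-scaled library, log2 CPM for profiles used a prior count of 2, and the SE is the absolute log2 fold change divided by the square root of F. The test was tried on simulated counts. Total counts were 20424581 to 24227361 in Caspase3 libraries and 22101015 to 26268377 in GFP libraries. Replicates differed by more than sampling noise (mean chi-square per gene 12.6 to 32.8). Figures were drawn with Matplotlib 3.10.9.

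The members and lists were chosen with earlier results of these data known. Named genes are the members, Gad2, 4 striatal genes, per related list the called members, the 2 most abundant and the 2 with the smallest p, and per member the 2 nearest profiles, predicted genes left out. Bcl11b and 1 gene of the related lists are not reported here. Genes named after their values were seen are Slc17a8, Eomes, Rnf152, Calb1, Crym, Nptx1, Sla, Cartpt and the marker genes given singly. Alternatives were other scalings, filters, thresholds and tests (DESeq2 1.42.0, limma 3.58.1 with voom or on log2(FPKM + 0.1) and log2(FPKM + 1)), blocking on the sample number, and leaving out each library.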

Additional observations from a re-analysis of the deposited data

How the results depend on the processing

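The count of 0 of 8 members called held with other scalings, the filter of 10 counts in 3 libraries, DESeq2, limma-voom, robust edgeR, both FPKM fits, the threshold of 0.1 and the replicate block. With no filter on low counts, 2 members were called (Slc17a6 higher, Neurod6 lower), 6 related genes instead of 0, and 913 genes in all instead of 274. The cause was not tested. Over all genes the count was 495 with DESeq2, 170 with log2(FPKM + 1) and 421 with the replicate block, which called 2 related genes (Nr4a2 and Cplx3, lower) and no member, and changed no other call of these genes. The numbers are not known to pair the samples: deviations of same-numbered libraries correlated at 0.0648, 0.178 and 0.0273 over genes, and not every library correlated best with its own number. With 1 library left out, 0 to 1 members, 0 to 3 related genes and 17 to 285 genes in all were called. The 1 member was Slc17a6, without Caspase3 replicate 1, and the 3 related genes were Nptx1, Wfs1 and Crym, higher, in the same fit. The 17 genes were called without GFP replicate 2, and 144 without GFP replicate 3. Without Caspase3 replicate 1 and GFP replicate 3 together, a fit added after seeing the data, 1 member (Slc17a6, log2 fold change 0.70, adjusted p = 0.0357) and 5 related genes were called (Nptx1, Wfs1 and Crym higher, Sla and Cartpt lower). With 1 library left out, the log2 fold change ranged from -0.10 to 0.23 for Slc17a7, -0.27 to 0.0081 for Tbr1, -0.20 to 0.034 for Cux2 and -0.12 to 0.12 for Neurod2. Signs reversed only when libraries were left out, in 4 members that were never called. Slc17a7 became -0.012 without Caspase3 replicate 1, -0.10 without GFP replicate 3 and -0.16 without both. Tbr1 became 0.0081 without GFP replicate 2. Cux2 became 0.034 without Caspase3 replicate 1 and 0.10 without both. Neurod2 became -0.049 without Caspase3 replicate 3, -0.12 without GFP replicate 3 and -0.11 without Caspase3 replicate 1 and GFP replicate 3. Fezf2 had the fewest reads of the members, 40 to 72 per library.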

Other observations

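Within the Caspase3 group, further genes of the excitatory neuron lists separated replicate 1 from replicates 2 and 3. Calb1, a calcium-binding protein, stood at 9.52, 102.1 and 56.2 CPM in Caspase3 replicates 1 to 3, against 33.2, 57.5 and 54.8 CPM in GFP replicates 1 to 3. Crym, a thyroid hormone-binding protein, stood at 1.80, 18.0 and 15.8 CPM in Caspase3 replicates 1 to 3, against 5.82 to 10.5 CPM in GFP libraries. Nptx1, a neuronal pentraxin, stood at 264.0, 551.8 and 516.8 CPM in Caspase3 replicates 1 to 3, against 313.8, 326.7 and 255.8 CPM in GFP replicates 1 to 3. Over all 6 libraries none passed edgeR's test (adjusted p = 0.933 for Calb1, 0.792 for Crym and 0.448 for Nptx1). Caspase3 replicate 1 was the lowest library for 25 of 62 related genes, or 40.3%, and for 23.3% of all tested genes. These genes were chosen after their values were seen.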
